A study of Mus musculus with 8 samples.

Results

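The mRNAs of endoplasmic reticulum (ER) chaperones and disulfide isomerases were followed in hematopoietic stem cells (HSCs) after Mitol deletion. The set holds 10 genes, taken by symbol from the 22065 named genes of the count table, and all 10 were found and passed the expression filter. They were the HSP70-type chaperones Hspa5 and Hyou1, the HSP70 co-chaperones Dnajb11 and Sdf2l1, the HSP90 of the ER Hsp90b1, the lectin chaperones Canx and Calr, and the disulfide isomerases Pdia3, Pdia4 and Pdia6. Mitol, listed in the table as Marchf5, encodes an E3 ubiquitin ligase of the outer mitochondrial membrane that is known to act on contacts with the ER, and the question was whether its loss moved the mRNAs of the ER folding machinery.

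The study compared bulk RNA-seq of 4 libraries from MitolΔ/Δ HSCs with 4 from control HSCs, each made from 100 sorted bone marrow cells of C57BL/6 mice aged 8 to 10 weeks. MitolΔ/Δ mice carried Mitol Flox/Flox and MX1-cre, control mice were Mitol Flox/Flox littermates without cre, and both received Poly:IC, an interferon-inducing RNA mimic, 1 week before the cells were taken. The Mx1 promoter answers to interferon and is active in blood cells of every lineage and in other tissues, so the deletion was not limited to HSCs, and the controls carried the floxed allele and the Poly:IC exposure but not the recombinase. In the study long-term HSCs are Lineage- c-Kit+ EPCR+ CD48- CD150+ cells. The labels do not say whether the replicates of a group came from separate mice, so the p-values below measure the spread between these libraries. In bulk libraries, fewer cells of a kind and less RNA per cell cannot be told apart.

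Proteins that enter the ER fold there with the help of these chaperones. HSPA5, also called BiP or GRP78, is the HSP70 of the ER lumen, which binds exposed hydrophobic stretches of unfolded proteins and also holds the stress sensors of the ER membrane. Calnexin (Canx) and calreticulin (Calr) hold glycoproteins by their sugar chains, and the isomerases make and rearrange disulfide bonds. When unfolded proteins build up, the sensors IRE1α (Ern1), PERK (Eif2ak3) and ATF6 (Atf6) start the unfolded protein response (UPR), in which the cleaved ATF6 and the spliced XBP1 raise transcription of many chaperone genes. In HSCs protein synthesis is known to be low, and the response is known to bear on whether the cells live or die under stress.

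Several members share sequence features in their promoters. RefSeq promoters, from 250 bases before to 50 bases after the start on GRCm38.p6, were found for 9 of the 10 members. Hyou1 had no entry. The ER stress response element (ERSE), known as a site of NF-Y together with ATF6 or XBP1, was searched on both strands by the letters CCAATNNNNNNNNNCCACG. It was in the promoters of 5 of these 9 members and in 39 of all 32851 promoters (0.119%). Many chaperone genes are known targets of ATF6 and XBP1, so a high share among the members was likely in advance. It is given as a description and not as independent evidence. The matches of these 5 members are printed here 5′ to 3′ on the strand of the motif, with the fixed letters in capitals.
Hspa5, 46 bases before the start, same strand as the gene: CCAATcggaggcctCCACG
Hsp90b1, 193 bases before the start, same strand: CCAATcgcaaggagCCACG
Hsp90b1, 88 bases before the start, opposite strand: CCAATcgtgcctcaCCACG
Canx, 126 bases before the start, same strand: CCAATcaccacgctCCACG
Calr, 143 bases before the start, opposite strand: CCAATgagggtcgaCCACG
Pdia6, 79 bases before the start, same strand: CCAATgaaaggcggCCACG

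With the last letter left free (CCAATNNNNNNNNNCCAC, in 0.365% of all promoters, which takes in every match above), Pdia3 and Pdia4 matched as well, so that 7 of 9 members held it. The related ERSE-II, ATTGG and CCACG with 1 free base between them, was in 0.0365% of all promoters and in that of Dnajb11, just after the start.
Pdia3, 11 bases before the start, same strand: CCAATcggcggctgCCAC
Pdia4, 89 bases before the start, opposite strand: CCAATcacgggctgCCAC
Dnajb11, after the start, same strand: ATTGGcCCACG

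The plain CCAAT letters, which overlap every match above, were in 9 of 9 members and in 37.4% of all promoters. The letters TGACGTGG of an XBP1 element (0.676% of all promoters) and TGATGNAA of an ATF4 element (3.97%) were in 0 of 9. Among other ER folding genes, 3 of the 44 with a promoter held the ERSE (Creld2, Dnajc3 and Ero1b), among ER-associated degradation genes 2 of 17 (Derl3 and Syvn1), and among cytosolic HSP70 and HSP90 chaperones 0 of 22. A match is a description of letters and no evidence that a factor was bound in these cells, and a missing match says only that the letters are not in this window.

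The 250 bases before the start are shown on the strand of the gene for 3 members on which the results below turn: Hspa5, the member best known as a marker of the UPR, Calr, whose groups did not overlap, and Sdf2l1, which had the largest fold change and no ERSE match. Capitals mark the ERSE match, which in Calr reads on the other strand.
Hspa5, chr2:34771840-34772089 of GRCm38.p6, plus strand: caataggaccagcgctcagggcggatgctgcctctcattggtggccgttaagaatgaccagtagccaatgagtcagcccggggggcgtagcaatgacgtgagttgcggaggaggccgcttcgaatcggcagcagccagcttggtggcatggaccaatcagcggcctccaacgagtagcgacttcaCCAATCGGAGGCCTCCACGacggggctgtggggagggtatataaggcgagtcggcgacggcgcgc
Calr, chr8:84846932-84847181 of GRCm38.p6, minus strand: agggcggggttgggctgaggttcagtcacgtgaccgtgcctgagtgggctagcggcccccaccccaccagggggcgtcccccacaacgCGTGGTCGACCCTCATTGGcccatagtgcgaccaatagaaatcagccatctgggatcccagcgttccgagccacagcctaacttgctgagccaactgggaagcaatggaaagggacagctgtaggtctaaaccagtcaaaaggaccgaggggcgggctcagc
Sdf2l1, chr16:17132384-17132633 of GRCm38.p6, minus strand: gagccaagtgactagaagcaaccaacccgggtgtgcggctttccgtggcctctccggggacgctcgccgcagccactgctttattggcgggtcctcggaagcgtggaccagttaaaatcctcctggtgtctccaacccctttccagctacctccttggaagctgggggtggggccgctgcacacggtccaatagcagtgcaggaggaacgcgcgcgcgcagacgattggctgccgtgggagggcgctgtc

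Counts on named genes summed to between 7214935 and 12398138 per library. Normalized counts, that is counts divided by DESeq2's size factors, are used below, with the mean ± SD over n = 4 libraries per group. The targeted gene Marchf5 was not lower beyond the spread in its total count: it had 274 ± 31.8 normalized counts in MitolΔ/Δ and 302 ± 29.9 in control HSCs, and counts per gene do not separate deleted from remaining exons. All 13 HSC markers were detected, with summed normalized counts of 30371 to 34740 in MitolΔ/Δ and 42920 to 49805 in control HSCs, and Hlf and Kit were among those that fell in MitolΔ/Δ HSCs by edgeR. All 18 of 18 mitotic genes rose, with sums of 9729 to 20583 in MitolΔ/Δ and 4206 to 8996 in control HSCs. Neutrophil genes summed to 405 to 1023, of which Prtn3 made up 332 to 1006 with a mean of 714 in MitolΔ/Δ and 419 in control HSCs (log2 fold change 0.76, adjusted p = 0.0674 by edgeR and 0.0150 by DESeq2), while Elane and Mpo were at 12.8 or less. S100a8 and S100a9 went the other way at low counts, and neither was tested by edgeR. S100a8 had 0.391 ± 0.783 in MitolΔ/Δ and 25.7 ± 21.5 in control HSCs, with overlapping groups (DESeq2 log2 fold change -5.85, adjusted p = 0.0284). S100a9 was at 0 in 4 of 4 MitolΔ/Δ libraries and at 2.64 to 21.3 in control HSCs. B-lineage genes summed to 136 to 211, plasma cell genes to 97.0 to 246, T-cell genes to 20.1 to 54.3 and megakaryocyte genes to 2400 to 5139, of which Vwf made up 2006 to 4059. The megakaryocyte gene Pf4 fell from 42.9 ± 16.2 to 13.3 ± 2.80 (log2 fold change -1.69, edgeR adjusted p = 0.0202), where 3.75% of all tested genes fell. Itga2b was split, with 286, 351, 1111 and 1440 in MitolΔ/Δ replicates 1 to 4 against 519 to 589 in control HSCs. Of these lists and of the red-cell genes, 2 of 10, 3 of 8, 2 of 5, 5 of 7, 1 of 7 and 4 of 8 were not in the table, which leaves out genes with fewer than 11 counts in all. MitolΔ/Δ replicate 3 stood apart in red-cell genes, with 1897 against 192 to 339 in the other libraries. The part of the marker, mitotic and lineage differences in the members' values was not tested.

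None of the 10 members passed the threshold between MitolΔ/Δ and control HSCs, although all 10 were higher on average. With edgeR's quasi-likelihood fit and Benjamini-Hochberg adjusted p-values over 16444 genes, 0 members rose and 0 fell at the threshold of 0.05, where 8.43% of all tested genes passed, 4.68% as higher and 3.75% as lower. At an unadjusted p-value under 0.05, 4 members were higher (Canx, Calr, Pdia3 and Sdf2l1), against 13.6% of all genes. DESeq2, which called 14% of its 16488 genes and 8.19% as higher, called 1 member, Calr, and limma-voom, which called 4.47% as higher, called Calr too. The fitted log2 fold change was above 0 in 10 of 10 members and in 47.7% of all tested genes, with a median of 0.24 over the members and of -0.02 over all genes. That count rested on control replicate 4, the library with the lowest level of 9 of the 10 members: without it, 6 of 10 members were above 0 and their median was 0.15. With library totals or upper-quartile factors in place of TMM, 9 of 10 were above 0, the exception being Hyou1.

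**Figure D1:**
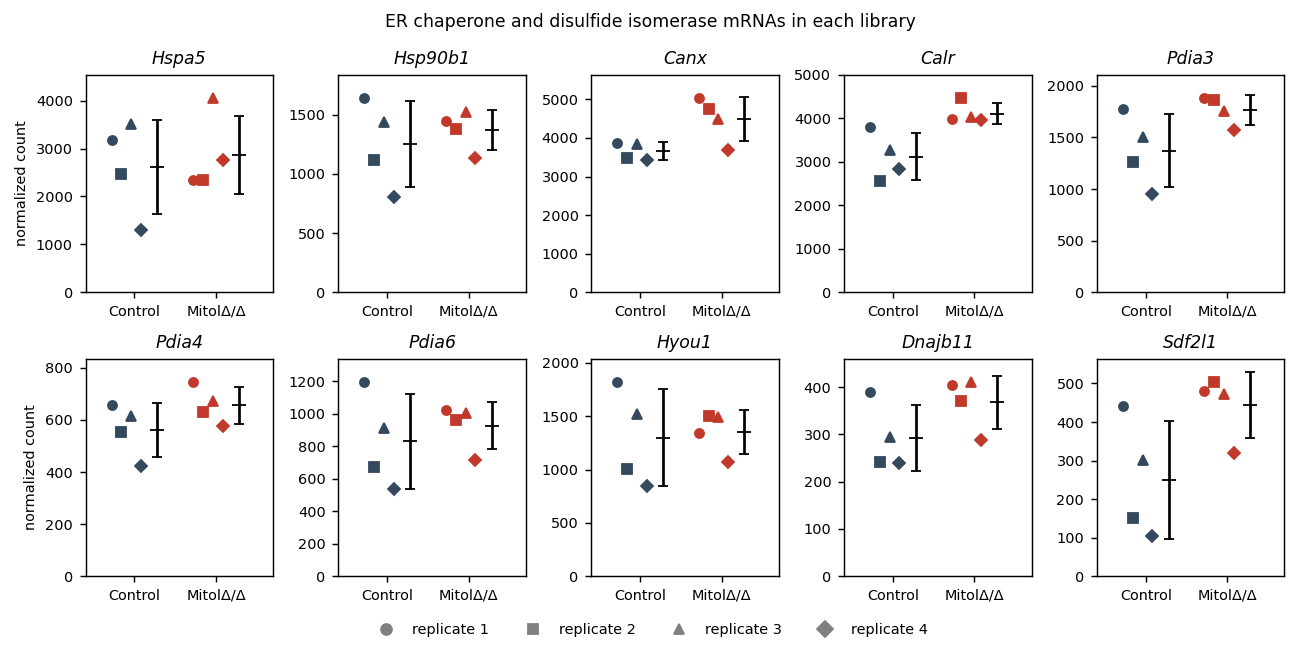
Normalized count (y axis, from 0) of each of the 10 members in every library, by group on the x axis. Symbols mark replicates 1 to 4, and the bar beside each group is the mean with its SD (n = 4). Calr is the panel in which every MitolΔ/Δ library lies above every control library, and control replicate 4 is the lowest point in 9 of the 10 panels.

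Among the lectin chaperones, Calr (ENSMUSG00000003814, chromosome 8, 85567946 to 85573667 of GRCm39, minus strand) encodes calreticulin, the soluble calcium-binding chaperone of the lumen. It had 3978, 4470, 4022 and 3969 normalized counts in MitolΔ/Δ replicates 1 to 4 and 3799, 2552, 3279 and 2842 in control replicates 1 to 4. Every MitolΔ/Δ library was above every control library, the closest being control replicate 1, and such a separation was seen in 15.4% of all tested genes, and upwards in 8.17%. The means were 4110 ± 242 and 3118 ± 544, a 1.30-fold difference or a log2 fold change of 0.38 (standard error 0.11, 95% interval 0.13 to 0.63). The adjusted p-value was 0.0572 by edgeR, 0.0174 by DESeq2 and 0.0432 by limma-voom, and the exact permutation test gave p = 0.0286, the smallest that 4 against 4 libraries allow. Leaving out MitolΔ/Δ replicate 4 or control replicate 1 took Calr past the threshold of edgeR (adjusted p = 0.0375 and 0.0216). With each library left out in turn, Calr passed in 2 of 8 fits. The edgeR adjusted p-value reached 0.149, and the log2 fold change ran from 0.30 to 0.50.

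Canx (ENSMUSG00000020368, chromosome 11, 50183939 to 50216529, minus strand), which encodes the membrane-bound calnexin, had the smallest spread of all members. MitolΔ/Δ replicates 1 to 4 held 5040, 4759, 4479 and 3688 normalized counts, and control replicates 3877, 3485, 3856 and 3424. The first 3 MitolΔ/Δ libraries were above all controls, and replicate 4 lay among them. The log2 fold change was 0.28 (standard error 0.10, 95% interval 0.06 to 0.49), with an adjusted p-value of 0.101 by edgeR and 0.0559 by DESeq2. Without MitolΔ/Δ replicate 4 it was 0.38 with an adjusted p-value of 0.0114 by edgeR. Canx passed in 1 of 8 fits with a library left out, and its edgeR adjusted p-value reached 0.239.

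Hspa5 (ENSMUSG00000026864, chromosome 2, 34661982 to 34668880, plus strand), the HSP70 of the lumen, had overlapping groups. Its normalized counts were 2343, 2335, 4060 and 2753 in MitolΔ/Δ replicates 1 to 4 and 3185, 2469, 3518 and 1298 in control replicates 1 to 4. MitolΔ/Δ replicate 3 was the highest of all libraries and control replicate 4 the lowest, while MitolΔ/Δ replicates 1 and 2 were below 3 of the 4 controls. The means of 2873 ± 815 and 2617 ± 983 gave a log2 fold change of 0.12 (standard error 0.26, 95% interval -0.45 to 0.69, edgeR adjusted p = 0.812). The interval reached from a 0.732-fold to a 1.61-fold level, so changes inside it were not detectable with these libraries. The sign turned without MitolΔ/Δ replicate 3 (-0.08) and without control replicate 4 (-0.10). On the canonical transcript of GENCODE vM39, 26.5% of Hspa5 lies across from Rabepk on the opposite strand. Over all annotated exons of Hspa5 the share is 44.2%. The strand setting of the counting is not given in the sources used here, so reads of the overlap cannot be told apart, and Rabepk had the same highest and lowest libraries, with 1369 normalized counts in MitolΔ/Δ replicate 3 and 479 in control replicate 4.

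Hyou1 (ENSMUSG00000032115, chromosome 9, 44290418 to 44303666, plus strand), a larger HSP70 relative that acts as a nucleotide exchange factor of HSPA5, had the smallest difference. It ranged from 1070 to 1506 normalized counts in MitolΔ/Δ HSCs and from 849 to 1823 in control HSCs, so that the control range enclosed the MitolΔ/Δ range. The log2 fold change was 0.04 (95% interval -0.41 to 0.49, edgeR adjusted p = 0.919). Hsp90b1 (ENSMUSG00000020048, chromosome 10, 86526073 to 86541446, minus strand), which encodes GRP94, the HSP90 of the ER that folds integrins and Toll-like receptors, also had a control range that enclosed the MitolΔ/Δ range. It had 1133 to 1521 normalized counts in MitolΔ/Δ and 808 to 1642 in control HSCs, and its log2 fold change was 0.12 (95% interval -0.28 to 0.51, edgeR adjusted p = 0.730). Without control replicate 4 the values were -0.11 for Hyou1 and -0.05 for Hsp90b1.

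The co-chaperones had the larger differences among the partners of HSPA5. Sdf2l1 (ENSMUSG00000022769, chromosome 16, 16948002 to 16950252, minus strand), which works with the J-domain protein ERDJ3, had 480, 504, 473 and 318 normalized counts in MitolΔ/Δ replicates 1 to 4 and 440, 152, 300 and 103 in control replicates 1 to 4. The first 3 MitolΔ/Δ libraries were above all controls, and replicate 4 was above controls 2, 3 and 4 but below control 1. The means were 444 ± 84.6 and 249 ± 153, a 1.78-fold difference, and the log2 fold change of 0.83 (standard error 0.35, 95% interval 0.07 to 1.58) was the largest of the members. It did not pass the threshold (edgeR adjusted p = 0.152, DESeq2 adjusted p = 0.244), and the exact permutation test gave p = 0.0571. The estimate moved to 0.57 without control replicate 4 and to 1.26 without control replicate 1, the latter with an edgeR adjusted p-value of 0.0374. Sdf2l1 passed in 1 of 8 fits with a library left out. Dnajb11 (ENSMUSG00000004460, chromosome 16, 22676587 to 22698384, plus strand), which encodes ERDJ3, had 289 to 411 normalized counts in MitolΔ/Δ and 240 to 389 in control HSCs. Its log2 fold change was 0.33 (95% interval -0.05 to 0.70, edgeR adjusted p = 0.253), and 2 of 4 MitolΔ/Δ libraries were above all controls.

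The disulfide isomerases did not separate the groups. Pdia3 (ENSMUSG00000027248, chromosome 2, 121244149 to 121270339, plus strand), the isomerase ERP57 that works with calnexin and calreticulin, had 1884, 1867, 1753 and 1568 normalized counts in MitolΔ/Δ replicates 1 to 4 and 1778, 1259, 1502 and 949 in control replicates 1 to 4. Only MitolΔ/Δ replicates 1 and 2 were above all controls. The log2 fold change was 0.35 (95% interval 0.01 to 0.69, edgeR adjusted p = 0.173), close to that of its partner Calr but with an SD of 353 among controls. Pdia4 (ENSMUSG00000025823, chromosome 6, 47770077 to 47790462, minus strand), which encodes ERP72, ranged from 576 to 746 in MitolΔ/Δ and from 422 to 658 in control HSCs, and its log2 fold change was 0.21 (edgeR adjusted p = 0.367). Pdia6 (ENSMUSG00000020571, chromosome 12, 17316533 to 17335913, plus strand), an isomerase known to bind HSPA5 and IRE1α, ranged from 715 to 1024 in MitolΔ/Δ HSCs and from 537 to 1195 in control HSCs, and its log2 fold change was 0.15 (edgeR adjusted p = 0.696). For both, the intervals included 0 (-0.09 to 0.51 and -0.30 to 0.60).

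**Figure D2:**
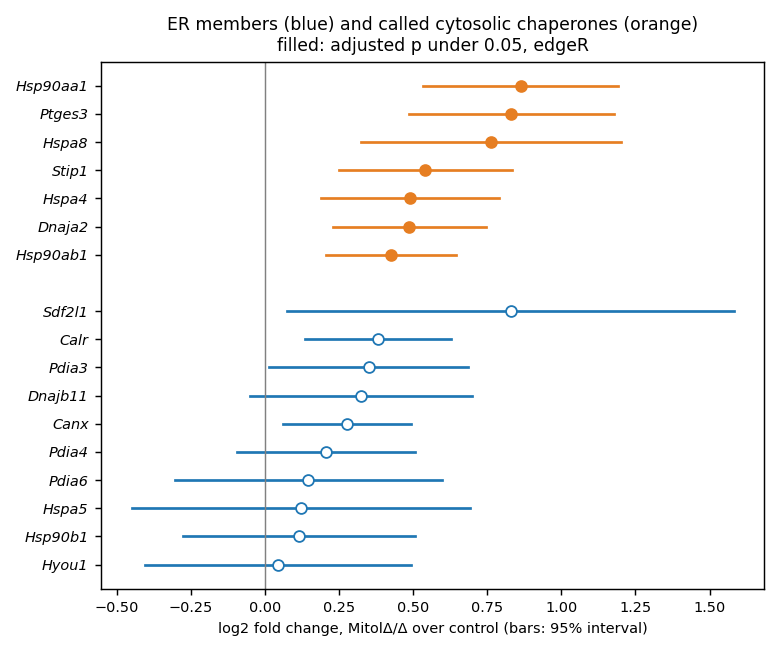
Log2 fold change of MitolΔ/Δ over control HSCs (x axis) with its 95% interval from edgeR (bars, n = 4 libraries per group) for the 10 members (blue) and for the cytosolic chaperones past the threshold (orange). All 10 blue points are open, that is with an adjusted p-value of 0.05 or more, and lie between 0.04 and 0.83. The 7 orange points lie between 0.43 and 0.86 and are filled by their choice, since the rest of the 26 tested cytosolic genes are not drawn. The 2 colors are therefore not a comparison of the lists.

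The level of each member was compared per kilobase of its canonical transcript in GENCODE vM39. In control HSCs the order was Calr with 1363 ± 238 normalized counts per kilobase, Canx with 961 ± 62.8, Hspa5 with 528 ± 198, Hsp90b1 with 442 ± 130, Pdia3 with 373 ± 95.8, Hyou1 with 292 ± 102, Pdia6 with 249 ± 87.0, Sdf2l1 with 224 ± 137, Dnajb11 with 146 ± 34.8 and Pdia4 with 102 ± 18.6. Calr was above Canx and Canx above Hspa5 in 8 of 8 libraries, so the lectin chaperones came first throughout. Hspa5 was above Hsp90b1 in 5 of 8 libraries, and Hsp90b1 above Pdia3 in 5 of 8, so these neighbours did not differ beyond their spread. Pdia6 and Sdf2l1 changed places between the groups: Sdf2l1 was the higher in 4 of 4 MitolΔ/Δ libraries (399 ± 76.1 against 278 ± 42.9 normalized counts per kilobase) and Pdia6 in 3 of 4 control libraries. The annotated length sets these values, and that of Hspa5, 4.95 kilobases, includes the stretch shared with Rabepk. Stretches of Hsp90b1, Pdia3 and Pdia6 likewise lie across from Gm66230, Ell3 and Atp6v1c2 (14.7%, 14.7% and 11% of the transcript).

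The members differed widely in how much they varied between libraries of the same group. The SD of log2 CPM, a depth-scaled count, within groups was 0.69 for Sdf2l1, more than in 98% of 12013 genes with at least 50 mean normalized counts, and 0.53 for Hspa5, more than in 94.7%. It was 0.15 for Canx and 0.18 for Calr, below the median of 0.21 of these genes, and between 0.22 and 0.39 for the other 6 members. Between the highest and the lowest control library, Sdf2l1 differed 4.27-fold, Hspa5 2.71-fold, Pdia6 2.22-fold and Canx 1.13-fold.

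The spread followed the same libraries across members. Control replicates 1 and 3 were both above control replicates 2 and 4 in 10 of 10 members, and the order of the controls was 1, 3, 2, 4 in 8 of them. Among MitolΔ/Δ libraries, replicate 4 was the lowest in 8 of 10 members. The summed normalized count of the 10 members was 18691, 18780, 19888 and 16079 in MitolΔ/Δ replicates 1 to 4 and 18786, 13501, 17242 and 11472 in control replicates 1 to 4. Control replicate 1 therefore lay among the MitolΔ/Δ libraries and control replicates 2 and 4 below all of them. In the same libraries the mitotic sums were 20583, 19196, 16074 and 9729 in MitolΔ/Δ replicates 1 to 4 and 4206, 4233, 8996 and 6521 in control replicates 1 to 4. Control replicates 1 and 2 had nearly equal mitotic sums, while their member sums were 18786 and 13501. MitolΔ/Δ replicate 4 had the lowest of its group in both sums. Whether the member and mitotic sums are related was not tested.

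**Figure D3:**
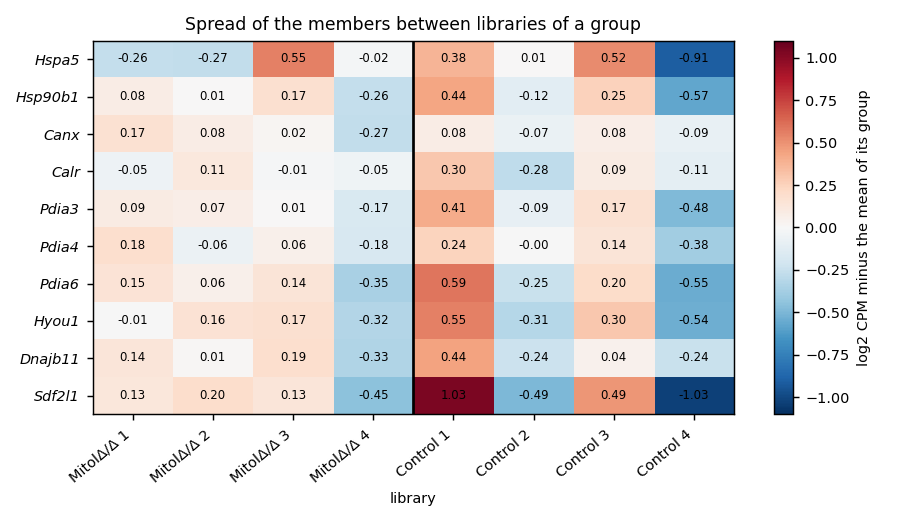
Log2 CPM of each member (rows) in each library (columns) minus the mean of its group, as the color scale and the printed number. Control replicate 1 is above its group mean in all 10 rows and control replicate 4 below it in all 10, with the widest range in Sdf2l1 and Hspa5 and the narrowest in Canx and Calr.

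Likeness to Hspa5 was measured as Pearson's r of log2 CPM over the 8 libraries after each group was centred on its mean, as a description over libraries that share their group, with 12012 genes ranked. The 5 genes most like it were Trak2 (r = 0.99), which encodes a mitochondrial transport adaptor, the cytosolic HSP110 Hsph1 (0.98), Zfand2a (0.97), the arsenite-inducible proteasome partner AIRAP, the transcriptional repressor Spen (0.97) and the ETS factor Elf2 (0.97). None of them was a member. Hsp90b1 was the closest member, at rank 278 (r = 0.82), followed by Pdia4 at 665, Hyou1 at 684, Pdia3 at 717, Sdf2l1 at 744, Pdia6 at 879, Dnajb11 at 1806, Calr at 2877 and Canx at 4485 (r = 0.21). Control replicate 4 carried part of this: without it Trak2 kept r = 0.99, but Hsp90b1 had 0.61 and Canx 0.03. Hsph1 had 1145, 1059, 2358 and 1226 normalized counts in MitolΔ/Δ replicates 1 to 4 and 708, 655, 1069 and 258 in control replicates 1 to 4. It shared its highest and its lowest library with Hspa5, while its groups were further apart (log2 fold change 1.09, standard error 0.35, edgeR adjusted p = 0.0742). The other 4 genes did not pass the threshold, with log2 fold changes of 0.18 (Trak2), 0.01 (Zfand2a), 0.09 (Spen) and 0.25 (Elf2) and edgeR adjusted p-values of 0.305, 0.973, 0.555 and 0.0672.

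The rest of the ER folding machinery was called higher about as often as all tested genes (3.77% against 4.68%). Of 55 other ER folding genes, 53 were tested, 2 rose and 0 fell by edgeR, with a median log2 fold change of 0.07 and 33 of 53 above 0. Mogs, the glucosidase that makes the first cut in the N-glycan before calnexin and calreticulin can bind, rose from 699 ± 77.5 to 1072 ± 237 normalized counts (log2 fold change 0.60, standard error 0.15, edgeR adjusted p = 0.0316). Selenof, a selenoprotein bound to the glucosyltransferase UGGT1, rose from 705 ± 49.9 to 916 ± 98.9 (log2 fold change 0.36, standard error 0.10, edgeR adjusted p = 0.0496), with 4 of 4 MitolΔ/Δ libraries above all controls. By limma-voom Selenof did not pass (adjusted p = 0.0525). With a library left out, Mogs passed the threshold of edgeR in 2 of 8 fits and Selenof in 1 of 8. Uggt1 itself, the sensor that sends unfolded glycoproteins back to the lectin chaperones, had a log2 fold change of 0.26 and an edgeR adjusted p-value of 0.0575.

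Among 20 UPR sensors and transcription factors, 1 rose and 1 fell, with a median of 0.06. The share that rose, 5%, was close to the 4.68% of all tested genes, where 3.75% fell. Xbp1, which encodes the factor spliced by IRE1α, had 1208, 2006, 2335 and 1772 normalized counts in MitolΔ/Δ replicates 1 to 4 and 1001, 940, 1348 and 603 in control replicates 1 to 4. All but MitolΔ/Δ replicate 1 were above every control. The log2 fold change was 0.90 (standard error 0.23, edgeR adjusted p = 0.0346), for the gene as a whole, since counts per gene do not separate the spliced from the unspliced form. Ern1, the gene of IRE1α, had 1953, 2052, 2186 and 2383 normalized counts in MitolΔ/Δ replicates 1 to 4 and 2647, 2724, 2786 and 2684 in control replicates 1 to 4. Every MitolΔ/Δ library was below every control, and the log2 fold change was -0.36 (standard error 0.08, edgeR adjusted p = 0.0264). With a library left out, Xbp1 passed the threshold of edgeR in 3 of 8 fits (log2 fold change 0.72 to 1.10) and Ern1 in 2 of 8 (-0.39 to -0.31). The other sensors and factors did not pass the threshold of edgeR. Log2 fold changes were 0.29 for Atf6 (edgeR adjusted p = 0.115), 0.03 for Eif2ak3 (0.899), -0.18 for Atf4 (0.589), -0.30 for Ddit3 (0.320), which encodes CHOP, and 0.30 for Ppp1r15b (0.0565), which encodes a phosphatase subunit for eIF2α. For Atf6 and Ppp1r15b, 4 of 4 MitolΔ/Δ libraries were above all controls, as in 8.17% of all tested genes. DESeq2 called Ppp1r15b (adjusted p = 0.0164) but not Atf6 (0.0622). The sign of Eif2ak3 turned with library totals (-0.02) and upper-quartile factors (-0.03).

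Of 23 genes of ER-associated degradation, by which misfolded proteins leave the ER for the proteasome, 0 passed the threshold of edgeR, with 5 higher and 1 lower at an unadjusted p-value under 0.05 and 1 called as higher by DESeq2. Over all tested genes, 8.43% passed the threshold of edgeR, 13.6% were higher at that unadjusted p-value and DESeq2 called 8.19% as higher. The lowest p-values belonged to Edem3 (log2 fold change 0.36, edgeR adjusted p = 0.0898), Edem2 (-0.24, 0.0997) and Ube2j1 (0.32, 0.100). Edem2 and Edem3, both of which act on mannose trimming, thus differed in sign.

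**Figure D4:**
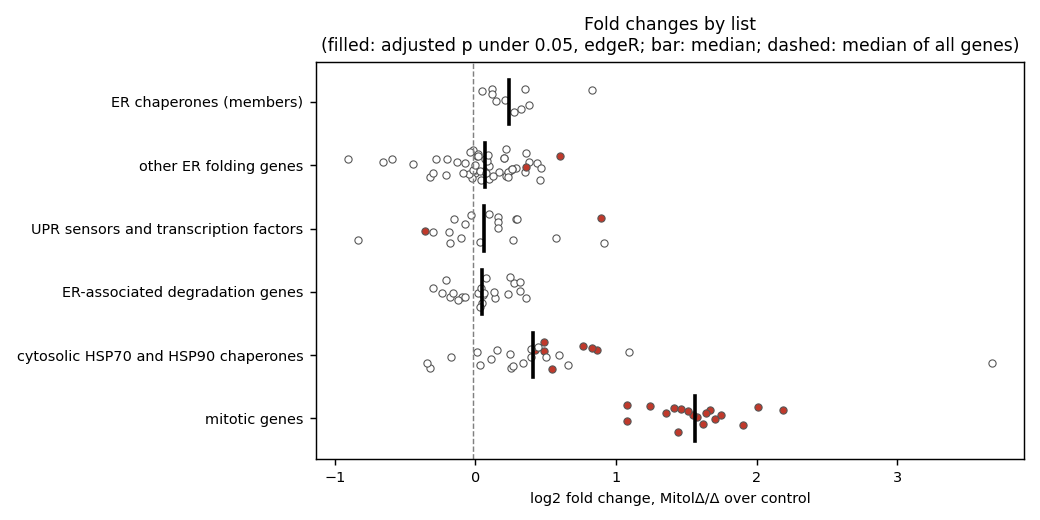
Log2 fold change of MitolΔ/Δ over control HSCs (x axis) for every tested gene of 6 lists (rows, with points spread vertically for sight only), with red points past the edgeR threshold, a black bar at the median of the list and a dashed line at the median of all tested genes (-0.02). The members have no red point and a median of 0.24, against 0.41 for cytosolic chaperones and 1.56 for mitotic genes. The point at 3.67 is Hspa1b, which rests on 402 normalized counts in MitolΔ/Δ replicate 3.

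Some cytosolic relatives of the members passed the test. Of 28 cytosolic HSP70 and HSP90 chaperones and partners, 26 were tested, 7 rose and 0 fell by edgeR, 23 were above 0 and the median log2 fold change was 0.41. The share that rose was 26.9%, against 4.68% of all tested genes. Hsp90aa1, the inducible cytosolic HSP90, rose from 1260 ± 273 to 2319 ± 321 normalized counts (log2 fold change 0.86, standard error 0.15, edgeR adjusted p = 0.00963), and its constitutive relative Hsp90ab1 from 13120 ± 1468 to 17845 ± 1893 (0.43, standard error 0.10, adjusted p = 0.0268). Hspa8, the constitutive cytosolic HSP70, rose from 4332 ± 1205 to 7433 ± 1671 (0.76, standard error 0.20, edgeR adjusted p = 0.0387). The others that rose were the HSP90 co-chaperones Ptges3 (0.83) and Stip1 (0.54), the J-domain protein Dnaja2 (0.49) and the HSP110 Hspa4 (0.49). With a library left out, Hsp90aa1 passed the threshold of edgeR in 8 of 8 fits and Ptges3 in 7. Hsp90ab1, Hspa8, Stip1 and Dnaja2 each passed it in 3 of 8, and Hspa4 in 2. A call in the cytosolic list and none among the members does not show that they differed. That difference was not tested. The ratios of 3 pairs of relatives, chosen after their values were seen, are given as a description, with no test.

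The log2 ratio of Hspa8 to Hspa5 counts was 1.31, 1.42, 1.20 and 1.60 in MitolΔ/Δ replicates 1 to 4 and 0.55, 0.81, 0.68 and 1.07 in control replicates 1 to 4. No MitolΔ/Δ library overlapped a control, and the mean was higher by 0.61 (1.38 ± 0.17 against 0.78 ± 0.22, n = 4 per group). For Hsp90aa1 over Hsp90b1 the log2 ratio was 0.76 ± 0.07 in MitolΔ/Δ and 0.03 ± 0.20 in control HSCs, a difference of 0.72 with 4 of 4 MitolΔ/Δ libraries above all controls. For Hsp90ab1 over Hsp90b1 the groups overlapped, and the difference was 0.27. With each library left out in turn, the differences ran from 0.53 to 0.71, from 0.63 to 0.78 and from 0.17 to 0.40. The ratios compare genes within a library, so they do not depend on the normalization.

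**Figure D5:**
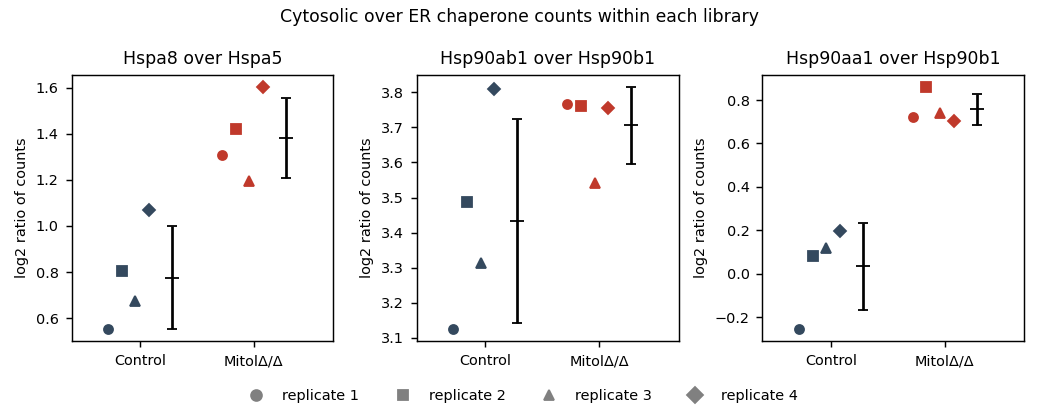
Log2 ratio of counts (y axis, not starting at 0) of a cytosolic chaperone over its ER relative within each library, for 3 pairs (panels), with symbols for replicates 1 to 4 and bars for the mean with its SD (n = 4). The MitolΔ/Δ libraries lie above all control libraries for Hspa8 over Hspa5 (1.20 to 1.60 against 0.55 to 1.07) and Hsp90aa1 over Hsp90b1 (0.70 to 0.86 against -0.26 to 0.20), and overlap them for Hsp90ab1 over Hsp90b1.

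Among the lists given here, the mitotic genes had the largest median. All 18 genes rose by edgeR, against 4.68% of all tested genes, with a median log2 fold change of 1.56. The 8 with the lowest p-values had edgeR adjusted p-values from 0.00344 to 0.0194. Their log2 fold changes were 2.18 (Rrm2), 1.90 (Ccna2), 1.70 (Aurkb), 1.67 (Tpx2), 1.62 (Bub1), 1.46 (Cdc20), 1.44 (Birc5) and 1.36 (Bub1b). Rrm2, counted in this list, encodes an enzyme subunit of nucleotide synthesis and not a mitotic factor. The largest fold change of a member, 0.83 for Sdf2l1, was below the smallest in the mitotic list, 1.08.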

How the data were processed

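RNA-seq was performed on 8 libraries of 100 sorted HSCs, 4 MitolΔ/Δ and 4 control. The authors aligned single-end 75 bp reads to mm39 (STAR), merged the alignments (SAMtools), counted them per gene (Subread) and deposited raw counts. Annotation and strand setting are not given in the sources used here. Of 23094 rows, 1029 without a gene symbol (0.335 to 0.467% of a library's counts) were left out, and 20368 of the 22065 symbols matched GENCODE vM39, which gave positions.

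Counts were tested with edgeR (version 4.0.16, glmQLFit and glmQLFTest, TMM, filterByExpr, condition as the sole term) with Benjamini-Hochberg adjustment over 16444 genes, at an adjusted p-value under 0.05. Single values were compared by exact permutation (2-sided, 70 arrangements). Log2 CPM used a prior count of 2. Alternatives were DESeq2 (version 1.42.0), limma-voom (version 3.58.1), 3 other normalizations, 2 other filters, the replicate number as a block, and each library left out. Depth was 7214935 to 12398138 counts per library. These are reads and not molecules, since no molecular identifiers were used, and 4 libraries per group limit the precision. No 2 libraries agreed within sampling noise.

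The members and lists were chosen with earlier results of these data known. Named genes were the members, the called genes of each pathway list (at most 8 by lowest p, or the 3 lowest p-values where fewer passed), the UPR sensors and factors, the 5 genes most like Hspa5, and Marchf5. Cell type markers came from lists of their own. Rabepk, Hspa1b, Prtn3, S100a8, S100a9, Pf4, Itga2b and genes named for their promoters were added after values were seen. Promoters came from RefSeq.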

Additional observations from a re-analysis of the deposited data

Results flagged for a closer look

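Within each group of 4, a library was set apart where its gap to the nearest other library exceeded the critical share of the group's whole range in Dixon's test at the 95% level. Chance does this in about 1 in 20 groups, and 88 groups were looked at. Among the members this held for Calr in MitolΔ/Δ replicate 2, with 4470 normalized counts against 3969 to 4022 in the other 3, and for Sdf2l1 in MitolΔ/Δ replicate 4, with 318 against 473 to 504. The high Calr library is thus on the side of the group difference, and the low Sdf2l1 library against it. Among the other named genes it held for Hsph1 (2358) and Elf2 (1895) in MitolΔ/Δ replicate 3, for Ppp1r15b in MitolΔ/Δ replicate 4 (1409) and control replicate 4 (1172), and for the mitotic gene Bub1 in control replicate 3 (212).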

How the results depend on the processing

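Of the members' log2 fold changes, over the 8 alternatives that keep all libraries, 75 kept their direction and side of the threshold, 3 passed it and 2 turned, and with a library left out 69, 4 and 7 did. The members past the threshold numbered 1 with DESeq2, 1 with limma-voom, 1 with the replicate block and 0 to 2 with a library left out (2 without MitolΔ/Δ replicate 4, Canx and Calr, and 2 without control replicate 1, Calr and Sdf2l1). Libraries of equal replicate number were at most weakly alike (correlations of deviations 0.09, -0.11, 0.09 and 0.08). Replicates 1 and 3 correlated best with their own number, and replicates 2 and 4 with another number. Whether equal numbers mark a pairing was not tested. The block gave 1652 genes in all and called Sdf2l1 (adjusted p = 0.034). All genes past the threshold numbered 2315 with DESeq2 against 1386 and 359 to 2501 with a library left out. The other ER folding genes called were 1 with library totals, upper-quartile factors, no filter or limma-voom, 5 with DESeq2 and 0 to 10 with a library left out, the ER-associated degradation genes 1 with upper-quartile factors or DESeq2 and 0 to 2, the UPR genes 0 to 4, the cytosolic chaperones 1 (without control replicate 2) to 12 (without MitolΔ/Δ replicate 4) and the mitotic genes 8 to 18. Signs turned with library totals and upper-quartile factors for Hyou1 (-0.0017 and -0.015), Eif2ak3 (-0.024 and -0.028) and Zfand2a (-0.036 and -0.043). With a library left out they turned for Hspa5 (-0.10 to 0.30, below 0 without MitolΔ/Δ replicate 3 or control replicate 4), Hsp90b1 (-0.045 to 0.29) and Pdia6 (-0.013 to 0.39), both below 0 without control replicate 4, Hyou1 (-0.11 to 0.26, below 0 without MitolΔ/Δ replicate 2, control replicate 2 or control replicate 4), Eif2ak3 (-0.038 to 0.098, below 0 without MitolΔ/Δ replicate 2 or control replicate 1) and Zfand2a (-0.12 to 0.11, below 0 without MitolΔ/Δ replicate 3, control replicate 2 or control replicate 4). The cause was not tested. The median of the members stayed between 0.15 and 0.35.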

Other observations

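Outside the members, 18 named genes of the table had the ERSE letters in their RefSeq promoter, a list drawn up after the members' promoters were read. Of these, 15 were tested, 0 rose and 0 fell by edgeR (0 at an unadjusted p-value under 0.05), 6 were above 0 and the median log2 fold change was -0.04, against 0.24 for the members. Of all tested genes, 8.43% passed the threshold of edgeR. Creld2, a secreted folding factor, had 0.36 (standard error 0.19, edgeR adjusted p = 0.259). Dnajc3, a J-domain partner of HSPA5, had -0.01 (0.942), the oxidase Ero1b -0.20 (0.493), and the degradation genes Syvn1 and Derl3 0.03 (0.889) and -0.30 (0.604).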
